A study of Homo sapiens with 36 samples.

Results

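HMC3 cells that had been exposed to 25 µM perfluorooctane sulfonate (PFOS) for 24 h and then kept for 24 h in PFOS-free medium were compared directly with HMC3 cells sampled at the end of the same 24 h exposure. The comparison takes 3 RNA-seq libraries of 25 µM recovery cells and 3 of 25 µM cells at 24 h, which are 6 of the 18 RNA-seq libraries among 36 samples in the series. It covers all 25344 gene symbols in the deposited count table, of which 9847 had enough counts to be tested. HMC3 is an established line of human microglial origin sold by ATCC, and the sample titles name no genetic change that sets a group apart. The other groups used here are 50 µM PFOS at 24 h, vehicle after the recovery step and vehicle at 24 h, each with 3 libraries. For recovery, the exposure medium was removed, cells were washed and fresh medium was given. The 25 µM recovery cells differ from the 25 µM cells at 24 h in the withdrawal of PFOS and also in 1 more day of culture and a change of medium. The same step in vehicle cells is therefore given beside the main results. The labels call the libraries of a group biological replicates without saying how cultures were set up, so the p-values here measure only how far such libraries vary, which may be technical.

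PFOS is a persistent perfluorinated surfactant. Cells that sense a shortage of amino acids or an overload of unfolded protein activate the integrated stress response. In it, translation slows and the transcription factor ATF4 raises genes for amino acid synthesis, amino acid import and tRNA charging, with the pseudokinase TRIB3 as a feedback member. The unfolded protein response of the endoplasmic reticulum raises chaperones such as HSPA5. Interferon-stimulated genes form a separate antiviral programme, driven by a transcription factor complex that includes IRF9 and binds a short promoter element.

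Total counts were 582233 to 4346627 in the 25 µM recovery libraries and 1367642 to 3679746 in the 25 µM libraries at 24 h, and lay within that range in the vehicle and 50 µM libraries. The 50 µM recovery libraries stood apart in the series, with 2.93% to 7.55% of their counts in ribosomal protein genes against 1.20% to 2.42% in the other 15. They are in none of the comparisons described here. They enter through the choice of genes tested, the scaling of the libraries and the shared estimate of spread. Of 22 microglial markers, 9 had no count in any of the 12 libraries of 25 µM and vehicle cells, namely AIF1, CX3CR1, ITGAM, TYROBP, C1QA, C1QB, C1QC, SALL1 and GPR34. P2RY12 and TMEM119 stayed at or below 1.08 CPM. CD68, at 15.6 to 32.4 CPM, and OLFML3, at 5.66 to 24.8 CPM, had enough counts to be tested. Of 18 mesenchymal markers, COL1A1, at 1040 to 1950 CPM, and THY1, at 479 to 874 CPM, were high in the same libraries. COL3A1 had no count there, LUM and DCN stayed at or below 0.766 and 1.18 CPM, PDGFRA had 3.24 to 8.49 CPM and ACTA2 had 0 to 11.7 CPM. The defining microglial transcripts AIF1, CX3CR1, P2RY12 and TMEM119 were thus at or near 0 in cells labelled microglial. In bulk RNA, fewer cells of a kind and less RNA per cell cannot be told apart.

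In 25 µM cells after recovery, 11 interferon-stimulated genes and the cardiac actin ACTC1 were higher than at the end of exposure, and ANGPTL4, MMP1, TRIB3, LOX, SERPINE2, STC2 and HSPA5 were lower. Of 9847 genes tested, 149 were called, meaning a Benjamini-Hochberg adjusted p under 0.05 in edgeR's quasi-likelihood test, which is 1.51% of the genes tested. Of these, 67 rose (0.68% of genes tested) and 82 fell (0.833%), and 95 moved at least 2-fold. The lowest adjusted p was 0.00012, shared by HSPA5 and CD274. The number of calls depended on single libraries: it was 61 without 25 µM 24 h replicate 2, 71 without 24 h replicate 3, 67 without recovery replicate 1, 42 without recovery replicate 2 and 94 without recovery replicate 3. Each of 34 genes kept its call with any 1 of the 6 libraries left out. DESeq2 called 230 genes, and a fit on the 12 libraries of vehicle and 25 µM cells called 563 (5.55% of genes tested there), which included all 149.

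**Figure D1:**
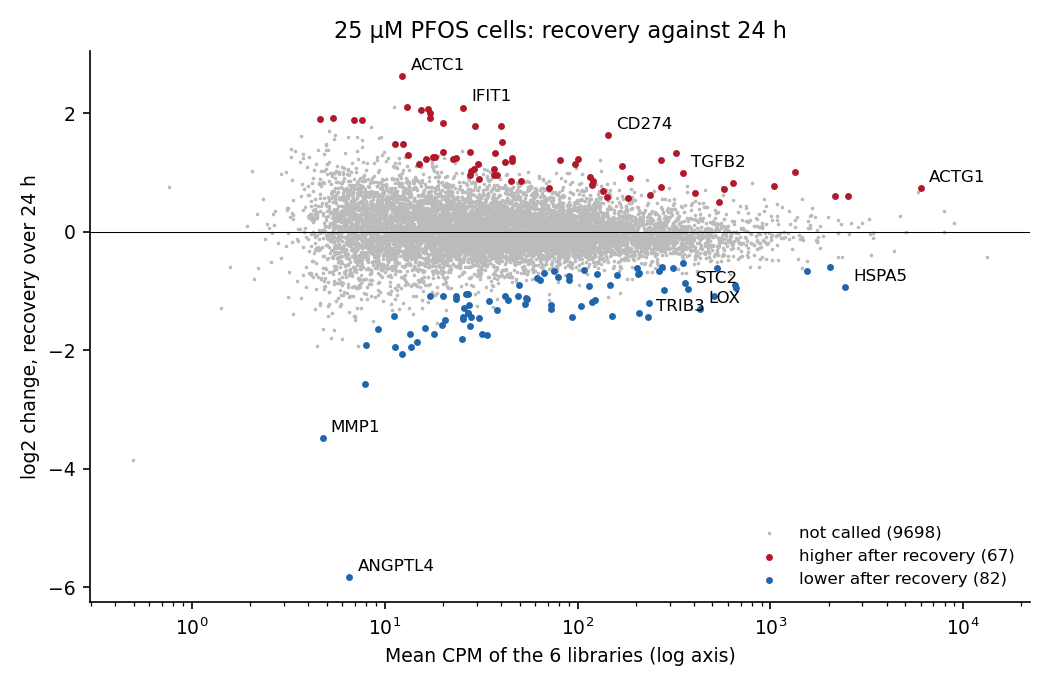
Log2 change of 25 µM recovery cells against 25 µM cells at 24 h for 9847 genes, against mean CPM over the 6 libraries on a log axis. The 67 genes called higher and the 82 called lower are in colour. HSPA5 lies at -0.93 at a high level, while ANGPTL4 and MMP1 lie lowest at low levels.

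The step from 24 h to recovery also moved genes in vehicle cells, where 96 genes were called (0.975% of genes tested), 33 higher (0.335%) and 63 lower (0.64%). That count was 12 without vehicle 24 h replicate 2, 39 without vehicle 24 h replicate 3, 17 without vehicle recovery replicate 2 and 45 without vehicle recovery replicate 3. The 25 µM and vehicle changes share no library. Across the 9847 genes, which are not independent replicates, the changes of 25 µM and vehicle cells had a Pearson r of 0.47 and a Spearman rho of 0.453. Of the 149 genes called in 25 µM cells, 131 (87.9%) had the same sign in vehicle cells, against 67.2% of all genes tested. In 31 genes both changes were called, always in the same direction, which is 20.8% of the 25 µM calls and 32.3% of the vehicle calls. The 67 genes that rose in 25 µM cells had a median log2 change of 1.17 in 25 µM cells and 0.32 in vehicle cells. The 82 that fell had a median of -1.15 in 25 µM cells and -0.58 in vehicle cells.

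**Figure D2:**
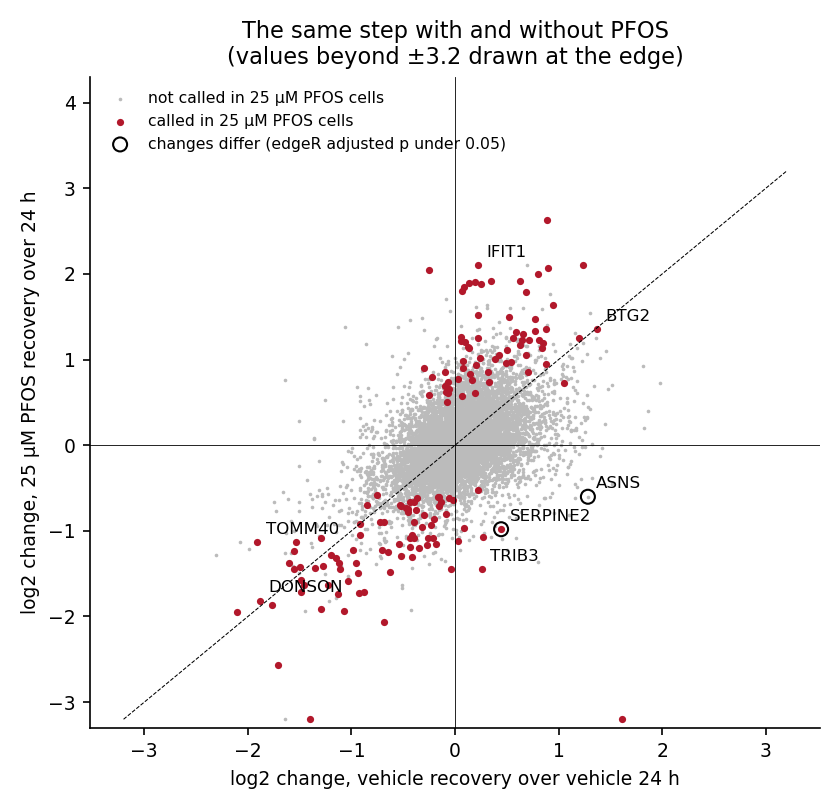
Log2 change from 24 h to recovery in 25 µM cells (vertical) against that in vehicle cells (horizontal), 1 point per tested gene, with called genes coloured. DONSON (-1.81 in 25 µM cells, -1.88 in vehicle cells) lies near the diagonal, and IFIT1 (2.10 and 0.22) and TRIB3 (-1.45 and 0.26) lie away from it.

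Interferon-stimulated genes made up the list with the most calls. Of 30 listed genes 20 were tested, 11 rose and none fell in 25 µM recovery cells against 25 µM cells at 24 h, where 0.68% of all genes tested rose. All 20 had a positive change, with a median log2 change of 1.24 in 25 µM cells and 0.21 in vehicle cells, against -0.0023 over all genes in 25 µM cells. The number of members called was 3 without 25 µM 24 h replicate 2, 7 without 24 h replicate 3, 7 without recovery replicate 1, 4 without recovery replicate 2 and 6 without recovery replicate 3. In vehicle cells edgeR called no member, with 7 at an unadjusted p under 0.05, none called by DESeq2 and 3 called higher in the 12-library fit, where 1.75% of all genes were. The other 10 listed genes, among them MX2, RSAD2 and OASL, had too few counts to be tested.

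IFIT1 (RefSeq chr10:89392623-89406487 on GRCh38.p14), which binds foreign RNA ends and blocks their translation, had 47.0, 33.9 and 42.1 CPM in 25 µM recovery libraries and 11.5, 7.28 and 10.1 CPM in 25 µM libraries at 24 h. CPM are counts scaled to a common library size after TMM normalization, and the value after ± beside a log2 change is its standard error (SE). Every recovery library exceeded every 24 h library. Vehicle recovery libraries had 31.4, 40.1 and 30.7 CPM and vehicle libraries at 24 h had 41.2, 26.7 and 25.9 CPM, which overlap. The low libraries were thus those of 25 µM cells at 24 h. The log2 change was 2.10 ± 0.28 (edgeR adjusted p = 0.000257) in 25 µM cells and 0.22 ± 0.23 (edgeR adjusted p = 0.75) in vehicle cells. Its neighbour IFIT2 had 77.1, 60.3 and 50.8 CPM in 25 µM recovery libraries and 9.36, 21.9 and 19.5 CPM at 24 h, again without overlap. For IFIT2 the log2 change was 1.79 ± 0.25 (edgeR adjusted p = 0.000344).

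MX1, a dynamin-like antiviral GTPase, averaged 27.3 ± 5.92 CPM in 25 µM recovery cells and 7.16 ± 1.96 CPM in 25 µM cells at 24 h (SD, n = 3 each). For MX1 the log2 change was 1.92 ± 0.27 (edgeR adjusted p = 0.000344). ISG15 (RefSeq chr1:1013497-1014540), a ubiquitin-like modifier, had 40.2, 46.2 and 49.7 CPM in 25 µM recovery libraries and 17.3, 12.1 and 11.3 CPM at 24 h. ISG15 had a log2 change of 1.78 ± 0.33 (edgeR adjusted p = 0.00554). USP18, the protease that removes ISG15 from its targets, rose with a log2 change of 1.89 ± 0.34 (edgeR adjusted p = 0.00414). IFI6 (RefSeq chr1:27666064-27672192), an interferon-induced membrane protein, had 20.1, 20.99 and 20.5 CPM in 25 µM recovery libraries and 7.20, 2.70 and 6.29 CPM at 24 h. Its log2 change was 2.11 ± 0.40 (edgeR adjusted p = 0.00625) in 25 µM cells and 1.24 ± 0.36 (edgeR adjusted p = 0.122) in vehicle cells. Vehicle libraries had 14.6, 18.3 and 15.1 CPM of IFI6 after recovery and 5.88, 5.41 and 8.54 CPM at 24 h, which do not overlap either. IRF9, the DNA-binding subunit of the interferon complex, rose with a log2 change of 1.26 ± 0.30 (edgeR adjusted p = 0.0308). Its 3 recovery libraries ranged from 11.7 to 34.6 CPM against 10.1 to 11.5 CPM at 24 h. Its partner STAT2 had a log2 change of 0.35 ± 0.20 (edgeR adjusted p = 0.476).

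The calls of IFIT1, IFIT2 and MX1 held with any 1 of the 6 libraries of the comparison left out, with highest adjusted p of 0.00542, 0.00443 and 0.0265. USP18 lost its call without 24 h replicate 2 (adjusted p = 0.07). IFI6 and ISG15 lost theirs without 24 h replicate 2 (adjusted p = 0.106 and 0.0637) or recovery replicate 2 (adjusted p = 0.0808 and 0.0578). IFI44, OAS1, PARP9, IRF9 and TRIM22, the other members called, each lost the call in 4 to 6 of the 6 fits, with highest adjusted p of 0.265, 0.409, 0.17, 0.216 and 0.249. At 7.40 CPM in recovery cells and 1.86 CPM at 24 h, OAS1 rests on few counts.

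Interferon-related genes outside the list were called in both directions, and those named here were picked by the size of their change or after their values were seen. Among the 12 largest increases was DDX60, an antiviral helicase, with 27.02 ± 7.41 CPM in 25 µM recovery cells and 7.29 ± 0.554 CPM at 24 h (SD, n = 3 each). DDX60 had a log2 change of 2.00 ± 0.28 (edgeR adjusted p = 0.000344) in 25 µM cells. In vehicle cells it was 0.80 ± 0.25 (edgeR adjusted p = 0.146), also without overlap of the libraries. The difference between the 25 µM and vehicle changes of DDX60 was not called (edgeR adjusted p = 0.491). For GBP1, a guanylate-binding GTPase, the log2 change in 25 µM cells was 1.84 ± 0.32 (edgeR adjusted p = 0.00345), and for EPSTI1 it was 1.88 ± 0.41 (edgeR adjusted p = 0.0177). GBP1 lost its call without recovery replicate 2 (adjusted p = 0.0521). EPSTI1 lost its call in 3 of the 6 fits, at most at 0.179. CD274, which encodes the immune checkpoint ligand PD-L1 and was picked out after its values were seen, had 243, 188 and 224 CPM in 25 µM recovery libraries and 60.5, 72.6 and 75.5 CPM at 24 h. Its log2 change was 1.63 ± 0.18 (edgeR adjusted p = 0.00012) in 25 µM cells. It also rose in vehicle cells, by 0.94 ± 0.17 (edgeR adjusted p = 0.0106), with 251 CPM after recovery and 133 CPM at 24 h. SLFN5, an interferon-inducible Schlafen gene also outside the list, fell with a log2 change of -1.08 ± 0.25 (edgeR adjusted p = 0.0273), and lost its call in 5 of the 6 fits, at most at 0.29.

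**Figure D3:**
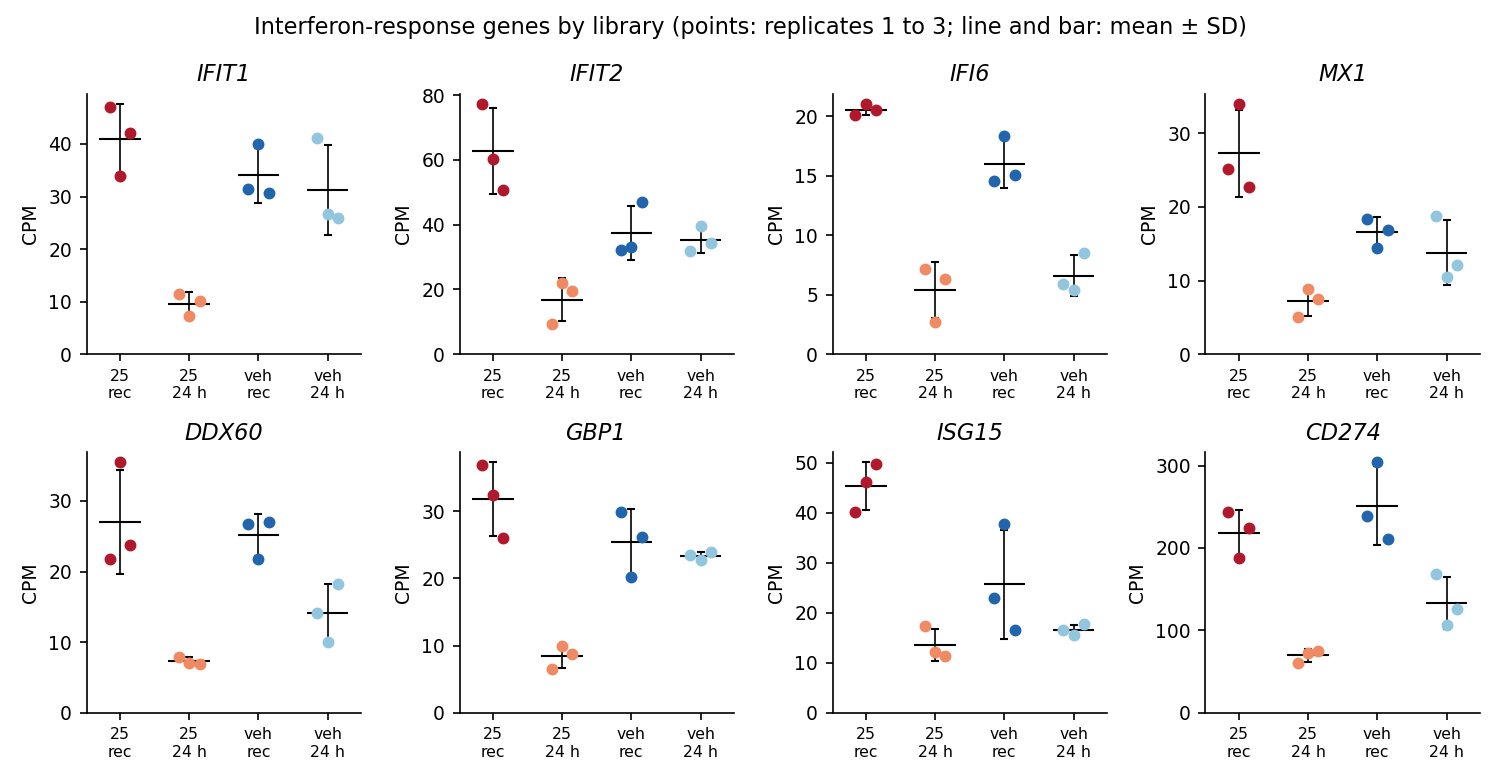
CPM per library in 25 µM recovery, 25 µM 24 h, vehicle recovery and vehicle 24 h cells (points are replicates 1 to 3, line and bar are mean ± SD) for list members and for GBP1, DDX60 and CD274, which are not on the list. The 25 µM libraries at 24 h are lowest for IFIT1 (9.62 CPM on average against 41.0 CPM in 25 µM recovery cells).

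The promoters of 3 of the called interferon genes are printed because they hold the element by which this programme is known. The core of the interferon-stimulated response element was searched as GAAA, any 2 bases and GAAA on both strands, in windows from 250 bases before to 50 bases after each RefSeq start on GRCh38.p14, with overlapping matches counted. It occurs in 3.57% of 35116 such windows and in 4.38% of 27305 genes with a window. Of the 11 called genes 8 have a window, and 6 of these hold the core (IFI44, IFI6, IFIT1, ISG15, MX1 and PARP9), while IRF9 and OAS1 do not. The 160 bases before each start follow, 5′ to 3′ on the strand of the gene, with the matches in capitals. They begin 116 and 103 bases before the start in IFIT1 (chr10:89392463-89392622, plus strand), where they lie on the opposite strand. In ISG15 (chr1:1013337-1013496, plus strand) they begin 113 and 107 bases before it and overlap. In IFI6 (chr1:27672193-27672352, minus strand) they begin 156, 115 and 93 bases before it. A match describes the letters of these windows and is no evidence of binding in these cells.
IFIT1: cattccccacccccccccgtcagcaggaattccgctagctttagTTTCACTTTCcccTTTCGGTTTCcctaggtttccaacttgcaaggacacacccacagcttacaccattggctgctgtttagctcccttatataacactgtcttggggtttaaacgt
ISG15: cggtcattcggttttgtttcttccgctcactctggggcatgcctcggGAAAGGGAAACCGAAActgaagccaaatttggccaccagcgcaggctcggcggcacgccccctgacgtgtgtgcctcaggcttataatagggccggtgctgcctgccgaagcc
IFI6: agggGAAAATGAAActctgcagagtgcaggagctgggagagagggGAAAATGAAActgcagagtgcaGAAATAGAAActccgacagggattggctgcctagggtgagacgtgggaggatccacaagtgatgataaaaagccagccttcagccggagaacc

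Among genes of the integrated stress response, TRIB3, GPT2, SLC7A5, GARS and YARS fell in 25 µM recovery cells against 25 µM cells at 24 h. The regulators ATF4, ATF3 and DDIT3 and the enzyme CHAC1 had positive changes that were not called. Of 11 tested genes on the list of stress regulators, edgeR called TRIB3 lower and none higher, where 0.833% of all genes tested fell. At an unadjusted p under 0.05, 3 were higher and 3 lower. DESeq2 called 1 higher and 1 lower, and the 12-library fit called 2 in each direction, where 3.14% of its genes were called higher and 2.42% lower. In vehicle cells edgeR called 2 of the 11 higher and none lower, where 0.335% of all genes tested rose. The 12-library fit called 4 higher in vehicle cells, where 1.75% of its genes were. TRIB3 had 121, 152 and 96.2 CPM in 25 µM recovery libraries and 287, 404 and 328 CPM in 25 µM libraries at 24 h, with the lowest 24 h library well above the highest recovery library. The vehicle libraries were lower than both, at 66.6, 52.9 and 82.4 CPM after recovery and 44.7, 58.0 and 61.5 CPM at 24 h. The log2 change was -1.45 ± 0.24 (edgeR adjusted p = 0.0028) in 25 µM cells and 0.26 ± 0.26 (edgeR adjusted p = 0.731) in vehicle cells. ATF4 itself averaged 131 ± 3.27 CPM in 25 µM recovery cells and 116 ± 5.80 CPM at 24 h (SD, n = 3 each). For ATF4 the log2 change was 0.18 ± 0.17 (edgeR adjusted p = 0.714). CHAC1, a glutathione-degrading enzyme, had log2 changes of 0.40 ± 0.29 (edgeR adjusted p = 0.59) in 25 µM cells and 1.86 ± 0.32 (edgeR adjusted p = 0.00479) in vehicle cells. The difference of the 2 changes was not called (edgeR adjusted p = 0.38).

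All 14 amino acid synthesis genes had negative changes in 25 µM cells, with a median log2 change of -0.39 against 0.27 in vehicle cells, but GPT2 alone was called by edgeR and 1 gene by DESeq2. At an unadjusted p under 0.05, 6 were lower, and the 12-library fit called 5 lower, where 2.42% of its genes were. In 9 of the 14 every recovery library lay below every 24 h library, where 15.2% of all genes tested did so. In vehicle cells edgeR called 2 of the 14 higher and none lower, where 0.335% of all genes tested rose. DESeq2 called 4 higher in vehicle cells, and the 12-library fit called 5, where 1.75% of its genes were. At an unadjusted p under 0.05, 7 were higher and 1 lower in vehicle cells. GPT2, the mitochondrial alanine aminotransferase, had 68.7, 82.4 and 75.6 CPM in 25 µM recovery libraries and 153, 193 and 163 CPM at 24 h. GPT2 had a log2 change of -1.15 ± 0.25 (edgeR adjusted p = 0.0171). Its call was lost in 5 of the 6 fits that left out a library, with a highest adjusted p of 0.106. PSAT1, of serine synthesis, had a log2 change of -0.40 ± 0.13 (edgeR adjusted p = 0.166), and SHMT2, of mitochondrial folate metabolism, had -0.40 ± 0.14 (edgeR adjusted p = 0.22). The 11 amino acid transporters had a median of -0.37 in 25 µM cells and 0.12 in vehicle cells. The 12-library fit called 2 of them lower, where 2.42% of its genes were. The 18-library fit, in which 0.833% of all genes tested fell, called 1 transporter lower. This was SLC7A5, the large neutral amino acid carrier, with a log2 change of -1.41 ± 0.26 (edgeR adjusted p = 0.00505). SLC7A5 also fell in vehicle cells, with -1.27 ± 0.26 (edgeR adjusted p = 0.0223), where it had 51.7 CPM after recovery and 121 CPM at 24 h. In vehicle cells edgeR called 1 other transporter higher, where 0.335% of all genes tested rose.

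Of 20 tRNA synthetases 19 had negative changes in 25 µM cells, with a median of -0.29 in 25 µM cells and 0.04 in vehicle cells. In 16 the recovery libraries all lay below the 24 h libraries, where 15.2% of all genes tested did so. The 12-library fit called 5 lower and the 18-library fit 2, where 2.42% and 0.833% of their genes fell. The glycyl- and tyrosyl-tRNA synthetases GARS and YARS fell, with log2 changes of -0.52 ± 0.12 (edgeR adjusted p = 0.0216) and -0.60 ± 0.15 (edgeR adjusted p = 0.0406). GARS had 283, 295 and 289.6 CPM in 25 µM recovery libraries and 423, 427 and 394 CPM at 24 h, a smaller change than that of TRIB3, without overlap of the libraries. Both calls were lost in each of the 6 fits that left out a library, with highest adjusted p of 0.125 and 0.224. STC2, a secreted stanniocalcin and 1 of 3 tested stress-secreted factors, had 236, 279 and 238 CPM in 25 µM recovery libraries and 471, 486 and 522 CPM at 24 h. For STC2 the log2 change was -0.96 ± 0.15 (edgeR adjusted p = 0.000803). Vehicle cells stayed near 236 CPM after recovery and 222 CPM at 24 h, so that the 25 µM libraries at 24 h stood above the other 9.

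HSPA5, the main chaperone of the endoplasmic reticulum lumen, was among the most abundant genes that fell. It had 1636, 1699 and 1670 CPM in 25 µM recovery libraries and 3094, 3422 and 3038 CPM in 25 µM libraries at 24 h. On average it had 1542 CPM in vehicle recovery cells and 1815 CPM in vehicle cells at 24 h. The log2 change was -0.93 ± 0.11 (edgeR adjusted p = 0.00012) in 25 µM cells and -0.24 ± 0.11 (edgeR adjusted p = 0.352) in vehicle cells. Of 21 tested genes of protein folding and degradation in this compartment, edgeR called HSPA5 alone, where 0.833% of all genes tested fell. DESeq2 called 3 lower, and 12 were lower at an unadjusted p under 0.05. The 12-library fit called 6 lower, where 2.42% of its genes were. Of the 21, 19 had negative changes, with a median of -0.38 in 25 µM cells and 0.01 in vehicle cells. The chaperones HYOU1 and HSP90B1 had log2 changes of -0.62 ± 0.19 (edgeR adjusted p = 0.115) and -0.47 ± 0.14 (edgeR adjusted p = 0.114). The calls of TRIB3, STC2, HSPA5 and SLC7A5 held with any 1 of the 6 libraries left out, with highest adjusted p of 0.024, 0.0121, 0.00257 and 0.0449.

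**Figure D4:**
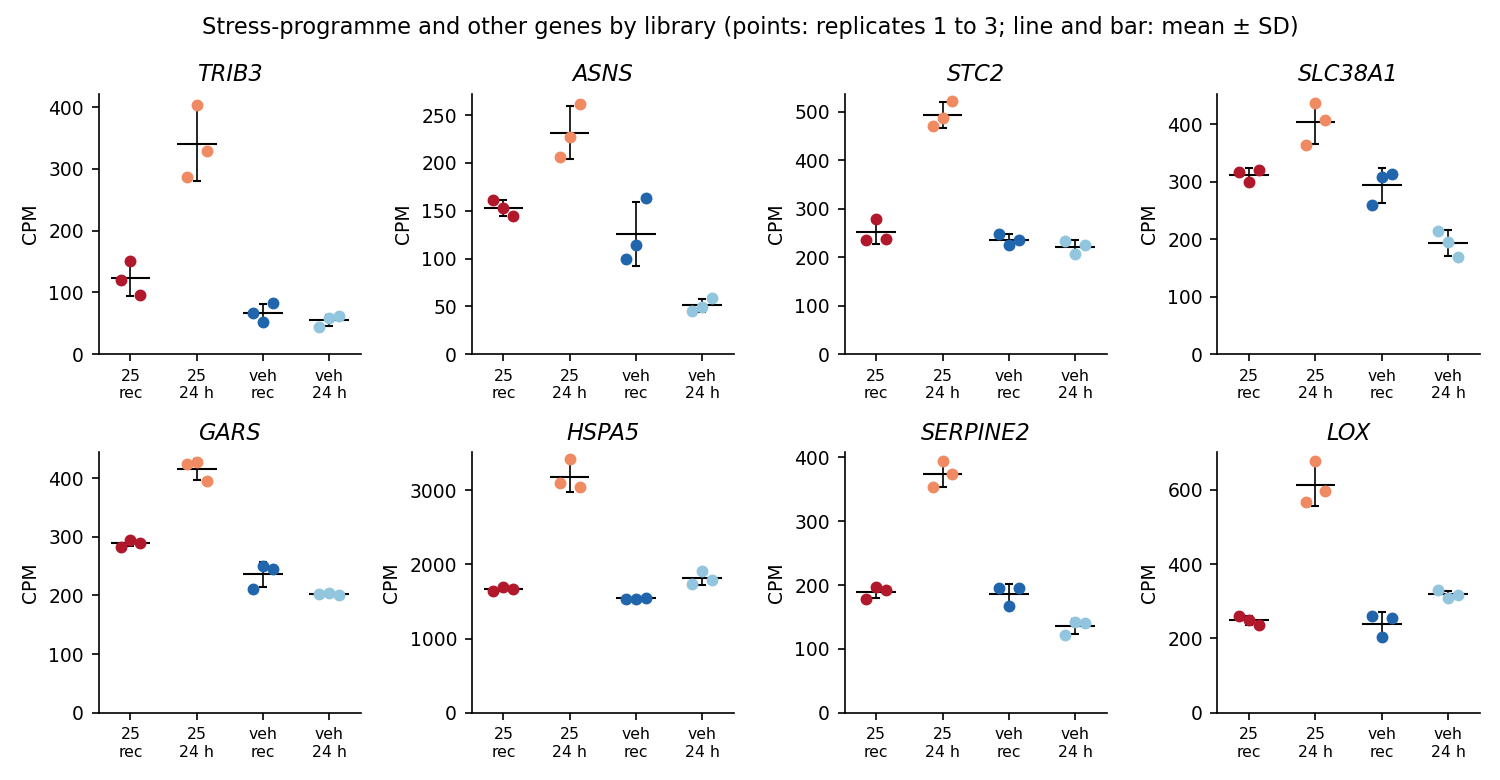
CPM per library in 25 µM recovery, 25 µM 24 h, vehicle recovery and vehicle 24 h cells (points are replicates 1 to 3, line and bar are mean ± SD) for TRIB3, ASNS, STC2, SLC38A1, GARS, HSPA5, SERPINE2 and LOX. In each panel the 25 µM libraries at 24 h are highest, as for STC2 with 493 CPM on average against 251 CPM in 25 µM recovery cells.

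Whether the change differed between 25 µM and vehicle cells was tested as a difference of the 2 changes. ASNS and SERPINE2 passed, both with a more negative change in 25 µM cells, which is 0.0203% of genes tested. There 458 genes had an unadjusted p under 0.05, and DESeq2 called 34. ASNS, asparagine synthetase, had 161, 153 and 145 CPM in 25 µM recovery libraries and 206, 227 and 262 CPM at 24 h, while vehicle libraries had 99.6, 114 and 163 CPM after recovery and 44.7, 49.7 and 58.6 CPM at 24 h. Every 25 µM recovery library was thus below every 25 µM library at 24 h, and every vehicle recovery library was above every vehicle library at 24 h. The log2 change was -0.60 ± 0.19 (edgeR adjusted p = 0.144) in 25 µM cells, not called, and 1.28 ± 0.20 (edgeR adjusted p = 0.00285) in vehicle cells. Their difference was -1.88 ± 0.28 (edgeR adjusted p = 0.00534). SERPINE2, the secreted protease inhibitor nexin, had 178, 197 and 192 CPM in 25 µM recovery libraries and 354, 395 and 374 CPM at 24 h. SERPINE2 had a log2 change of -0.98 ± 0.13 (edgeR adjusted p = 0.000257). In vehicle cells it averaged 186 CPM after recovery and 135 CPM at 24 h. The log2 change in vehicle cells was 0.44 ± 0.13 (edgeR adjusted p = 0.123), and the difference was -1.43 ± 0.18 (edgeR adjusted p = 0.00147). Both calls held with any 1 of the 12 libraries left out, with highest adjusted p of 0.0411 for ASNS and 0.0132 for SERPINE2.

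A promoter window of ASNS is shown because ASNS is a textbook target of ATF4 and because its change differed from that in vehicle cells. The composite C/EBP-ATF element was searched as TGATGNAA on both strands in the same windows, 3.62% of which hold it. Its match begins 68 bases before a RefSeq start of ASNS (chr7:97872409-97872568, minus strand) and is in capitals. That start lies inside the RefSeq span of the gene (chr7:97851677-97928441), and only a window with a match was printed. Of the 5 called genes of stress regulation, amino acid synthesis, transport and tRNA charging, 3 have a window and 1 of these, GARS, holds the element. Of the 27305 genes with a window, 4.46% hold it.
ASNS: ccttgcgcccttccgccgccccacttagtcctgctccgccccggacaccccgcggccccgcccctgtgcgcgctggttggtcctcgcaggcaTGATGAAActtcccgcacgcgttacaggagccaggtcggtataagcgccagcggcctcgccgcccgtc

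In the fit on the 12 libraries of vehicle and 25 µM cells, the difference of changes was called for 35 genes (0.345% of 10136 tested), 14 more negative (0.138%) and 21 more positive (0.207%) in 25 µM cells. The 14 include TRIB3, STC2, SLC38A1, PSAT1, SHMT2, PCK2, ALDH1L2, GARS and HSPA5 of the stress lists, with log2 differences of -1.65, -1.04, -0.99, -0.86, -0.81, -1.17, -1.35, -0.74 and -0.69. In the 18-library fit SLC38A1, PSAT1, SHMT2, PCK2 and ALDH1L2 changed by -0.37, -0.40, -0.40, -0.38 and -0.26 in 25 µM cells. In vehicle cells they rose by more, with 0.61, 0.46, 0.42, 0.82 and 1.09. TRIB3, STC2, GARS and HSPA5 had -1.45, -0.96, -0.52 and -0.93 in 25 µM cells and 0.26, 0.09, 0.22 and -0.24 in vehicle cells. The 21 include IFIT1, IFIT2 and GBP1, with 1.85, 1.71 and 1.77, the sterol gene ACAT2, with 0.78, and the actin cytoskeleton genes ACTG1, CALD1 and LIMA1, with 0.81, 0.75 and 0.71. ACAT2 changed by 0.42 in 25 µM cells and by -0.36 in vehicle cells in the 18-library fit. These genes were named after the 12-library values were seen. In the 18-library fit their adjusted p lay above 0.05, for IFIT1 at 0.072 and for TRIB3 at 0.0986.

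Genes of actin and of matrix and its remodelling moved in both directions. ACTC1, cardiac alpha-actin and the largest increase, had 16.8, 23.7 and 23.8 CPM in 25 µM recovery libraries and 1.44, 4.05 and 4.40 CPM in 25 µM libraries at 24 h. For ACTC1 the log2 change was 2.63 ± 0.37 (edgeR adjusted p = 0.000388). Vehicle libraries had 13.8, 36.4 and 21.5 CPM after recovery and 11.8, 13.3 and 14.7 CPM at 24 h, so the 25 µM libraries at 24 h were again the low ones. TAGLN, the smooth muscle actin-binding protein transgelin, rose with a log2 change of 0.65 ± 0.16 (edgeR adjusted p = 0.0371). TAGLN lost its call in each fit that left out a library, with a highest adjusted p of 0.245. The abundant cytoskeletal genes ACTG1 and CALD1, picked out after their values were seen, rose with log2 changes of 0.74 ± 0.15 (edgeR adjusted p = 0.013) and 0.77 ± 0.11 (edgeR adjusted p = 0.000488). CALD1 kept its call in each of the 6 fits, and ACTG1 lost its call in 4 of them, at most at 0.098. ACTG1 averaged 7512 CPM in 25 µM recovery cells and 4505 CPM at 24 h. Counts of actins are uncertain, since their sequences are close to one another. TGFB2, a transforming growth factor, had 431, 488 and 478 CPM in 25 µM recovery libraries and 230.4, 237 and 237 CPM at 24 h. TGFB2 had a log2 change of 0.99 ± 0.18 (edgeR adjusted p = 0.00505), and the call held in each of the 6 fits. FGF1, a fibroblast growth factor, and KRT17, a keratin, picked out in the same way, rose with log2 changes of 1.15 ± 0.15 (edgeR adjusted p = 0.000221) and 1.52 ± 0.21 (edgeR adjusted p = 0.000311), against 0.13 and 0.22 in vehicle cells.

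Of 28 matrix genes, 2 rose (COL8A1 and FSTL1) and 3 fell (LOX, TGFBI and MMP1), where 0.68% of all genes tested rose and 0.833% fell, with a median log2 change of -0.26. LOX, the enzyme that crosslinks collagen and elastin, had 259.9, 249 and 237 CPM in 25 µM recovery libraries and 567, 678 and 597 CPM at 24 h. For LOX the log2 change was -1.31 ± 0.16 (edgeR adjusted p = 0.000205). In vehicle cells LOX averaged 239.5 CPM after recovery and 319 CPM at 24 h. MMP1, interstitial collagenase, summed to 4 counts over the 25 µM recovery libraries and 54 over the 25 µM libraries at 24 h. Relative to library size it was 12.1 times higher at 24 h, with an exact 95% interval of 4.47 to 46.1 that covers counting error only. It lost its call without recovery replicate 2 (adjusted p = 0.189). In vehicle cells MMP1 summed to 4 counts after recovery and 11 at 24 h, with a log2 change of -1.40 (edgeR adjusted p = 0.463). TGFBI, a matrix protein induced by transforming growth factor, fell with a log2 change of -1.44 ± 0.20 (edgeR adjusted p = 0.000406) in 25 µM cells and of -1.35 ± 0.20 (edgeR adjusted p = 0.00191) in vehicle cells. COL8A1 and FSTL1 lost their calls in 6 and 3 of the fits without a library, with highest adjusted p of 0.172 and 0.0691.

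Other secreted and surface products that fell included PTX3, an innate pattern-recognition pentraxin, with 18.4, 16.3 and 9.72 CPM in 25 µM recovery libraries and 41.0, 41.3 and 40.9 CPM at 24 h. For PTX3 the log2 change was -1.45 ± 0.26 (edgeR adjusted p = 0.00492). PTX3 lost its call without recovery replicate 2 (adjusted p = 0.0544). NT5E and CD44, surface molecules used as mesenchymal markers, fell with log2 changes of -1.08 ± 0.21 (edgeR adjusted p = 0.00719) and -0.86 ± 0.13 (edgeR adjusted p = 0.00062). Of the 15 mesenchymal markers tested these 2 fell and 1, TAGLN, rose, where 0.833% and 0.68% of all genes tested did. Of the 15, 9 had positive changes, with a median of 0.08. The summed level of the 18 mesenchymal markers was 3598 to 4037 CPM in 25 µM recovery libraries and 3992 to 4366 CPM in 25 µM libraries at 24 h, ranges that overlap. NT5E lost its call without 24 h replicate 2 (adjusted p = 0.0658) and without recovery replicate 2 (adjusted p = 0.098), and CD44 kept its call in each fit. NPPB, the natriuretic peptide precursor, was among the largest increases, at 28.5, 25.7 and 19.4 CPM in 25 µM recovery libraries and 7.20, 4.59 and 6.92 CPM at 24 h. For NPPB the log2 change was 2.05 ± 0.44 (edgeR adjusted p = 0.0171), and the call was lost in 4 of the 6 fits without a library, at most at 0.165. PTPRQ, a receptor-type phosphatase, rose with a log2 change of 2.07 ± 0.28 (edgeR adjusted p = 0.00027). In vehicle cells PTPRQ had 0.90 ± 0.23 (edgeR adjusted p = 0.0646), without overlap of the libraries. The 12-library fit called this vehicle change (edgeR adjusted p = 0.0171). FOSL1, an AP-1 subunit, fell with a log2 change of -0.89 ± 0.16 (edgeR adjusted p = 0.00402). In 25 µM cells the calls of PTPRQ and FOSL1 held in each of the 6 fits. Called members of the remaining lists were 1 of 18 NRF2 targets (SRXN1, lower) and 1 of 10 NF-κB and cytokine genes (PTX3, lower). They were also 1 of 19 immediate early genes (FOSL1, lower) and 3 of 16 TGFβ and YAP targets (2 higher, TGFB2 and TAGLN, and 1 lower). Of all genes tested, 0.68% rose and 0.833% fell.

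Lipid genes were led by ANGPTL4, a secreted inhibitor of lipoprotein lipase and a target of PPAR receptors. It had 1 count in all 25 µM recovery libraries together and 89 counts in the 25 µM libraries at 24 h, where its level was 7.92, 13.5 and 17.6 CPM. The level at 24 h was 79.9 times that after recovery, with an exact 95% interval of 14 to 3190 for counting error (edgeR adjusted p = 0.000344). The call held in each of the 6 fits. Vehicle cells had 1 count after recovery and 0 at 24 h. None of the other 10 tested PPAR targets was called. Of 25 cholesterol genes FDPS, farnesyl diphosphate synthase, rose, where 0.68% of all genes tested did. Its log2 change was 0.83 ± 0.18 (edgeR adjusted p = 0.0215). The call was lost in each of the 6 fits, with a highest adjusted p of 0.149. The list had a median log2 change of 0.19 in 25 µM cells and -0.29 in vehicle cells, with 20 of 25 positive in 25 µM cells and 23 of 25 negative in vehicle cells. The 12-library fit called 5 members higher in 25 µM cells, where 3.14% of its genes were. In vehicle cells edgeR called 1 member lower, where 0.64% of all genes tested fell, and DESeq2 called 2. The difference of the 2 changes was positive in all 25. The 12-library fit called 2 of these differences, where 0.207% of its genes were called more positive.

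Several of the largest decreases were accompanied by decreases in vehicle cells. DONSON, which protects replication forks, had 8.38, 8.48 and 18.4 CPM in 25 µM recovery libraries and 38.2, 31.3 and 46.5 CPM at 24 h. It had 13.8, 14.7 and 16.0 CPM in vehicle recovery libraries and 69.4, 58.4 and 41.8 CPM in vehicle libraries at 24 h. Both changes were called, at -1.81 ± 0.29 (edgeR adjusted p = 0.00184) and -1.88 ± 0.25 (edgeR adjusted p = 0.000975), and their difference was 0.06 ± 0.41. The transcription factor TBX3, the small Maf protein MAFF, HPS6 of lysosome-related organelle assembly and sulfiredoxin SRXN1 also fell in both, with log2 changes of -1.86, -1.94, -2.57 and -1.45 in 25 µM cells and -1.76, -2.11, -1.71 and -1.56 in vehicle cells. CDC25A, a phosphatase that drives entry into S phase, fell in 25 µM cells with -2.06 ± 0.31 (edgeR adjusted p = 0.000803) and had -0.68 ± 0.24 in vehicle cells, with no call for the difference (edgeR adjusted p = 0.38). The remaining large decreases were EMP1 at -1.72, DNAJC1 at -1.94, CMTM3 at -1.91, HPCAL1 at -1.73 and OSBPL10 at -1.72. In vehicle cells these genes had -0.93, -1.07, -1.295, -1.13 and -0.88, none of them called. The 12-library fit called the vehicle changes of CMTM3 and HPCAL1 (edgeR adjusted p = 0.0347 and 0.0249). In 25 µM cells DNAJC1, CMTM3, HPCAL1 and OSBPL10 lost their calls in 3 to 5 of the 6 fits without a library. Their highest adjusted p were 0.45, 0.366, 0.0759 and 0.291. Without recovery replicate 2, the deepest library at 4346627 counts, adjusted p rose above 0.05 for DONSON (0.0875), TBX3 (0.0697), CDC25A (0.0697) and MAFF (0.195). MAFF lost its call in 5 of the 6 fits in all. SRXN1, HPS6 and EMP1 kept their calls in each of the 6 fits. HPS6 rests on few counts, with 0, 14 and 1 in the 25 µM recovery libraries and 23, 52 and 20 at 24 h.

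The p53 targets that rose in 25 µM cells had positive changes in vehicle cells as well. Of 21 tested, BTG2, GADD45B, TP53I3 and CDKN1A rose and none fell, where 0.68% of all genes tested rose, with a median log2 change of 0.38 in 25 µM cells and 0.33 in vehicle cells. The cell cycle inhibitor CDKN1A had 734, 717 and 701 CPM in 25 µM recovery libraries and 392, 448 and 457 CPM at 24 h. It had 684, 669.5 and 526 CPM in vehicle recovery libraries and 347, 259 and 304 CPM in vehicle libraries at 24 h. CDKN1A had a log2 change of 0.73 ± 0.18 (edgeR adjusted p = 0.0399) in 25 µM cells and 1.05 ± 0.18 (edgeR adjusted p = 0.00485) in vehicle cells. The antiproliferative gene BTG2 rose with 1.35 ± 0.27 (edgeR adjusted p = 0.0086) in 25 µM cells and 1.37 ± 0.27 (edgeR adjusted p = 0.0148) in vehicle cells. In 25 µM cells the calls of CDKN1A, BTG2, GADD45B and TP53I3 were lost in 6, 2, 5 and 6 of the fits without a library, with highest adjusted p of 0.183, 0.103, 0.205 and 0.16.

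Of 27 hypoxia and glycolysis genes, PDK1 and LDHA fell, where 0.833% of all genes tested did. Their log2 changes were -1.09 ± 0.24 (edgeR adjusted p = 0.0222) and -0.59 ± 0.14 (edgeR adjusted p = 0.0399). LDHA, lactate dehydrogenase A, fell in vehicle cells too, with -0.75 ± 0.14 (edgeR adjusted p = 0.0131). WIPI1, an autophagy protein, was the 1 of 28 lysosome and autophagy genes that fell, against the same 0.833% of all genes tested. Its log2 change was -0.64 ± 0.14 (edgeR adjusted p = 0.0215). The calls of PDK1, LDHA and WIPI1 were lost in 5, 6 and 6 of the fits without a library, at most at 0.117, 0.201 and 0.129. No gene was called among 24 mitosis genes, 27 DNA replication genes, 20 heat shock proteins, 33 respiratory chain subunits, 14 fatty acid synthesis genes, 9 histones or 4 zinc-related genes, whose medians lay between -0.14 and 0.22. At an unadjusted p under 0.05 edgeR gave 6 mitosis genes, 5 respiratory chain subunits, 2 heat shock proteins and 1 fatty acid synthesis gene, and DESeq2 called none in these lists. The 12-library fit called 5 respiratory chain subunits higher and 1 mitosis gene lower, and none in the other lists named here. It called 3.14% of all its genes higher and 2.42% lower. The abundant mitotic gene TOP2A had 1212, 1053 and 1099 CPM in 25 µM recovery libraries and 1157, 1250 and 1211 CPM at 24 h, which overlap. For TOP2A the log2 change was -0.11 ± 0.12 (edgeR adjusted p = 0.755). Ribosomal protein genes had no call among 74 tested, with 19 at an unadjusted p under 0.05 and none called by DESeq2. The 12-library fit called 29 of them higher, where it called 3.14% of all its genes higher. Of the 74, 73 had positive changes, with a median of 0.54 in 25 µM cells and 0.21 in vehicle cells.

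The share of counts in ribosomal protein genes was 2.00%, 1.83% and 2.20% in 25 µM recovery libraries and 1.66%, 1.20% and 1.61% in 25 µM libraries at 24 h. The groups do not overlap, and the difference of 0.518 percentage points had an exact permutation p of 0.1 (two-sided), the smallest that 3 against 3 libraries allow. In vehicle cells the share was 1.53%, 2.02% and 1.40% after recovery and 1.37%, 1.33% and 1.45% at 24 h, which overlap (exact permutation p = 0.2). Over 9781 genes with a RefSeq position, the log2 change ran against the length of the gene on the genome with a Spearman rho of -0.151 in 25 µM cells and -0.0391 in vehicle cells. With this trend removed, the medians in 25 µM cells were 0.42 for ribosomal proteins, 1.19 for interferon genes and -0.36 for amino acid synthesis genes.

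**Figure D5:**
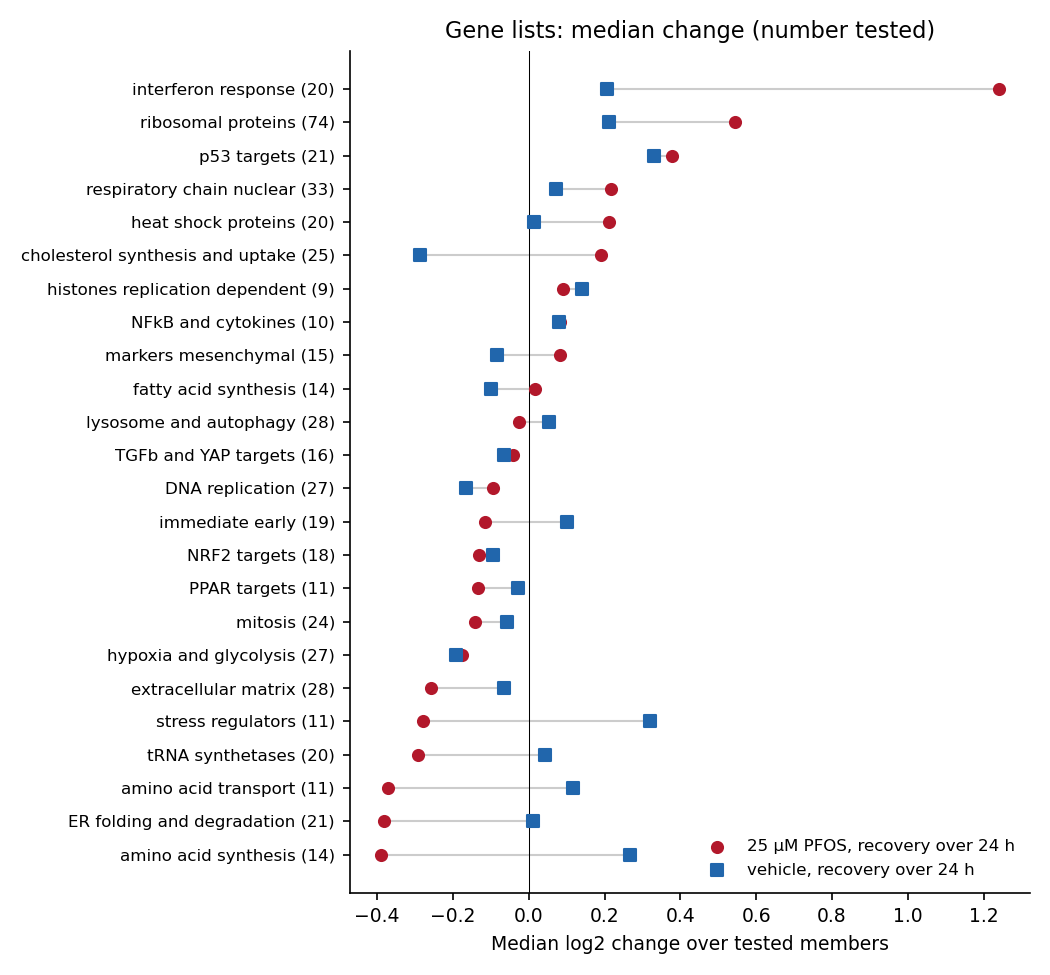
Median log2 change from 24 h to recovery of gene lists in 25 µM cells and in vehicle cells, highest list on top. Lists with few tested members are not drawn, among them stress-secreted factors (3 tested), zinc-related genes (4) and microglial markers (3). Interferon genes stand at 1.24 in 25 µM cells and 0.21 in vehicle cells, and amino acid synthesis genes at -0.39 in 25 µM cells and 0.27 in vehicle cells.

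Genes chosen for their response to the higher dose gave a view that shares no library with the comparison. At 24 h, 904 genes were higher (9.18% of genes tested) and 944 lower (9.59%) in cells given 50 µM PFOS than in vehicle cells. Of the 904, 35 fell in 25 µM recovery cells against 25 µM cells at 24 h (3.87%, against 0.833% of all genes tested) and 4 rose. Of the 944, 43 rose (4.56%, against 0.68% of all genes tested) and 7 fell. The median log2 change in 25 µM cells was -0.12 over the 904 genes, 0.08 over the 944 and -0.0023 over all genes. TRIB3, STC2, LOX and HSPA5 belong to the 904, with log2 changes at 50 µM of 3.92, 2.10, 2.07 and 1.78, and IFIT1, ACTC1 and TGFB2 to the 944, with -2.67, -4.01 and -2.33. Leaving out 1 of the 25 µM libraries gave 12 (recovery replicate 2), 15 (24 h replicate 2), 17 (recovery replicate 1), 19 (24 h replicate 3), 20 (recovery replicate 3) and 22 (24 h replicate 1) in place of 35. In place of 43, it gave 18 (24 h replicate 2), 20 (recovery replicate 2), 21 (24 h replicate 3), 22 (recovery replicate 1) and 25 (recovery replicate 3).

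Set against vehicle at the same time, 122 genes (1.24%) were called in 25 µM cells at 24 h and none after recovery, where 693 had an unadjusted p under 0.05, DESeq2 called 1 and the 12-library fit called 7 (0.0691% of genes tested there). These comparisons share libraries with the change described above, and their values are given side by side. TRIB3 had a log2 difference from vehicle of 0.90 ± 0.25 (edgeR adjusted p = 0.523) after recovery and 2.60 ± 0.25 (edgeR adjusted p = 4.28e-06) at 24 h. HSPA5 had 0.11 ± 0.11 (edgeR adjusted p = 0.884) after recovery and 0.81 ± 0.11 (edgeR adjusted p = 0.000161) at 24 h. IFIT1 had 0.19 ± 0.24 (edgeR adjusted p = 0.987) after recovery and -1.69 ± 0.27 (edgeR adjusted p = 0.00149) at 24 h. MX1 had 0.82 ± 0.24 (edgeR adjusted p = 0.523) after recovery and -0.75 ± 0.28 (edgeR adjusted p = 0.351) at 24 h. PCK2 and PSAT1, of amino acid metabolism, had 0.59 ± 0.22 (edgeR adjusted p = 0.565) and 0.50 ± 0.13 (edgeR adjusted p = 0.523) after recovery. At 24 h they had 1.79 ± 0.22 (edgeR adjusted p = 8.17e-05) and 1.35 ± 0.13 (edgeR adjusted p = 4.28e-06). A difference that missed the threshold after recovery does not show that the cells equalled vehicle.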

How the data were processed

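RNA was extracted with TRIzol, and poly(A) RNA was made into libraries by Smart-seq2 and sequenced as paired ends, per the labels' protocols. Smart-seq2 uses no molecular identifiers and does not mark strand, and a count is not 1 independent molecule, so that intervals cover counting error only. The authors deposited raw counts, listed by gene symbol with a column for each library. Their processing notes name Trimmomatic, STAR, DESeq2 and MACS2 and the builds GRCh38 and hg38. The sources used here give no versions, counting tool, gene models or strandedness of counting. Overlapping genes and near-identical copies are thus uncertain. H3K27ac CUT&Tag, the other 18 libraries, was not analysed here.

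The test was the quasi-likelihood test of edgeR 4.0.16, run in R 4.3.3 on all 18 libraries with TMM scaling and a mean for each group. Genes under a minimum count of 10 by filterByExpr were dropped, and the 9847 that stayed hold 99.2% of counts. Called means a two-sided p under 0.05 after Benjamini-Hochberg adjustment over those 9847. Total counts of 582233 to 4346627 per library limit the precision for low genes. The script was tested on simulated data. Alternatives were DESeq2 1.42.0, other scaling, no filter, subsets of libraries, thinned counts, a gene-length trend and a replicate block. Replicates within the 25 µM groups differed by more than counting noise (chi-square per degree of freedom 1.29 to 2.67) and each was counted as 1 sample.

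The comparison and the 31 gene lists were chosen with earlier results of these data known. Named genes were the 12 genes with the largest rise and the 12 with the largest fall, taken from called genes that reached 5 CPM in a group and whose libraries did not overlap, up to 6 genes per direction for the difference of changes, and in each list the 3 called members with the largest change or, with none called, the most abundant. A few genes that the rule named are not reported here, and genes outside it were picked after their values were seen. Of the symbols, 95.3% matched RefSeq genes on GRCh38.p14, which supplied positions and promoters.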

Additional observations from a re-analysis of the deposited data

Results flagged for a closer look

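The change from 24 h to recovery differed between 25 µM and vehicle cells for ASNS and SERPINE2 by the test of the difference itself. For ASNS the log2 difference, 25 µM minus vehicle, was -1.88 ± 0.28 (SE; edgeR adjusted p = 0.00534), with every 25 µM recovery library below every 25 µM library at 24 h and every vehicle recovery library above every vehicle library at 24 h. For SERPINE2 it was -1.43 ± 0.18 (SE; edgeR adjusted p = 0.00147), with log2 changes of -0.98 in 25 µM cells and 0.44 in vehicle cells.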

How the results depend on the processing

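Of the 48 named genes called in 25 µM recovery cells against 25 µM cells at 24 h, 16 kept their call in every setting in which they were tested, and none changed sign. Calls in 25 µM cells (149), in vehicle cells (96) and for the difference of changes (2) numbered 328, 224 and 10 with every counted gene kept, 563, 406 and 35 in the 12 libraries of vehicle and 25 µM cells, and 230, 152 and 34 with DESeq2. Fitted on the libraries of their own groups they were 1208 in 25 µM cells and 35 for the difference, and with counts thinned to the smallest library 59 in 25 µM cells and 22 in vehicle cells. With 1 library left out they ranged from 42 to 100, 12 to 72 and 2 to 3. Of genes higher at 50 µM, 35 fell in 25 µM cells; this was 82 with 12 libraries, 198 with own libraries, 16 thinned, 56 with DESeq2 and 12 to 22 with a library left out. Of genes lower at 50 µM, 43 rose; this was 67 without filter, 106, 188, 19 thinned and 18 to 30 with a library left out. The 11 interferon genes were 3 thinned and 3 to 8 with a library left out. The cause was not tested, except that thinning and leaving out libraries remove counts or samples. With the replicate number as a block, calls were 118, 54 and 2, and the interferon genes called were 8. Deviations of same-numbered 25 µM libraries correlated at 0.0144, 0.165 and 0.015, and those of differently numbered ones at -0.0857 to 0.0505. With so few libraries per group this does not settle whether the numbers pair the samples. Small changes with no call reversed sign: H1F0 to -0.16 with the gene-length trend removed, with or without the block, and SLC39A10 to -0.12 with thinned counts. With a library left out, SLC39A10 ranged from -0.02 to 0.08 and TUBB3 from -0.07 to 0.38. The smallest library, 25 µM recovery replicate 1 with 582233 counts, limits what can be called among low genes.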
